A study of Mus musculus with 16 samples.

Results

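The measurements described here are those of miR-126, a microRNA (miR) made as a pair of strands, miR-126-3p and miR-126-5p, in 6 populations of mouse hematopoietic stem and progenitor cells (HSPCs). The members were every non-control probe that the array design assigns to mmu-miR-126-3p or mmu-miR-126-5p, which gave 2 miRs of the 577 on the array and 4 probes of 1712. Each member had 2 probes of 10 spots each. The 16 single-color Agilent arrays each held total RNA of a population sorted from the bone marrow of untreated, young adult female C57Bl/6 mice, with no allele or agent that distinguished the groups. All populations were sorted from cells that lacked mature lineage antigens and carried c-kit. The HSC subsets were long-term HSCs (LT-HSC, 1 array), short-term HSCs (ST-HSC, 3 arrays) and multipotent progenitors (MPP, 3 arrays). The myeloid progenitors had 3 arrays each of MEP, which give rise to megakaryocytes and erythroid cells, of GMP, which give rise to granulocytes and monocytes, and of their common progenitor, CMP. Mice were pooled for each sample, so the spread between arrays is a spread between pools. HSC subsets and myeloid progenitors came from separate sorts, and an effect of the sort cannot be told apart from the difference between them.

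A miR is cut from a hairpin transcript, and either strand of the resulting duplex can be loaded into an Argonaute protein, where bases 2 to 8 of the strand, the seed, pair with target mRNAs. Mir126a lies within the span of Egfl7, the gene of a secreted protein of endothelial cells, and miR-126 is abundant in endothelium, where it acts in vessel integrity. In the blood system miR-126 is known for restraining the entry of HSCs into the cell cycle. Both arms come from the same hairpin, so a comparison of the arms asks whether the mature strands vary together across populations.

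The sequences are shown to place the probes and the seed. They are those of RefSeq on GRCm38.p6, with bases 2 to 8 in capitals in the mature strand and the 3p strand in capitals in the hairpin. The mature strand lies at chr2:26591402-26591423 on the plus strand and the hairpin of 73 bases at chr2:26591357-26591429. Of 1679 mature mouse miRs in the RefSeq table, 1 had the seed CGUACCG, namely miR-126a-3p itself. RefSeq names the locus Mir126a because a Mir126b is annotated on the opposite strand, and 0 probes of the array were named for miR-126b.
miR-126a-3p: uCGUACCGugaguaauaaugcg
Mir126a hairpin: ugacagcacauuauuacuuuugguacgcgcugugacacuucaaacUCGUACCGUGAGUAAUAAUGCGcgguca

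The array design places the probes on chromosome 2 of mm9. The miR-126-3p probes A_54_P2286 and A_54_P2285 match chr2:26446925-26446943 and chr2:26446926-26446943, and the miR-126-5p probes A_54_P1035 and A_54_P4367 match chr2:26446885-26446905 and chr2:26446886-26446905. In each pair the probes differ by a single end base. The brighter probe of each pair, A_54_P2286 for miR-126-3p and A_54_P1035 for miR-126-5p, stood for its arm. Signals of different probes depend on their hybridization, so a level of miR-126-3p is never set against a level of miR-126-5p below. Only their changes are.

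The arrays lay on 3 slides. Replicates 1 and 2 of CMP, GMP and MEP were on slide 1. Their replicates 3 were on slide 2, next to LT-HSC 1 and ST-HSC 1. The remaining ST-HSC arrays, 2 and 3, and all of MPP were on slide 3. The summed signal of the arrays ran from 34810 units on LT-HSC 1 to 335064 units on GMP 2, and no spot was saturated. The LT-HSC array stood apart from the other HSC subsets in the erythroid miRs miR-144, miR-451 and miR-486, whose summed normalized signal was 2387 units there, 41.7 to 307.8 units on the ST-HSC and MPP arrays and 4044 to 6187 units in MEP. LT-HSC 1 and every MEP array measured all 3 of these miRs well above background. The normalized signal of the granulocyte and monocyte miR miR-223 was 16855 units on each GMP array and 305.7 to 7524 units on all others. Quantile normalization gives probes of equal rank the same value, so this equality does not show how closely the GMP arrays agreed. None of the 5 measured stromal and smooth muscle miRs (miR-143, miR-145, miR-199a-5p, miR-199b and miR-214) was well above background on any array. No list of endothelial or platelet markers independent of miR-126 was measured, and the part of such cells in the values below was not tested.

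miR-126-3p was well above background on all 16 arrays, where a probe counts as such if at least a share of 0.5 of its spots was called so by the scanner software. Before any normalization the signal of A_54_P2286 was 438.4, 339.6 and 323.9 units on the MPP arrays. In CMP it was 348.6 and 308.2 units on slide 1 and 66.4 units on slide 2. ST-HSC 1 on slide 2 gave 142.5 units, and ST-HSC 2 and 3 on slide 3 gave 94.9 and 91.2 units. MPP was therefore the brightest population on the slide that it shared with ST-HSC, and CMP the brightest myeloid population on both slides that held it. GMP gave 92.9 and 114.4 units on slide 1 and 24.1 units on slide 2. MEP gave 58.6 and 40.6 units on slide 1 and 25.5 units on slide 2. The LT-HSC array gave 52.6 units, on the array with the lowest summed signal. Raw signal of the same population was thus higher on slide 1 than on slide 2 in CMP, GMP and MEP. The spots of A_54_P2286 on an array had a coefficient of variation of 2.58% to 14.2%, with a median of 5.52%.

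After quantile normalization between arrays, the level of miR-126-3p on the log2 scale was 8.90, 8.40 and 8.40 in MPP, with a mean of 8.56 ± 0.29 (SD, n = 3). The LT-HSC array was at 8.01. CMP stood at 7.58, 7.40 and 7.12, with a mean of 7.37 ± 0.23 (SD, n = 3). ST-HSC were spread most widely, at 8.08 on slide 2 against 6.65 and 6.86 on slide 3, with a mean of 7.20 ± 0.77 (SD, n = 3). GMP arrays gave 6.05, 6.29 and 5.30 (mean 5.88 ± 0.52, SD, n = 3) and MEP arrays 5.54, 5.54 and 5.37 (mean 5.48 ± 0.10, SD, n = 3). The order of the means was MPP, LT-HSC, CMP, ST-HSC, GMP, MEP. Every array of MPP, LT-HSC, CMP and ST-HSC was above every array of GMP and MEP, while ST-HSC and CMP overlapped. The share of all miRs that separate these populations in this way is not given. In these bulk samples fewer cells carrying the miR and less of it per cell cannot be told apart.

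miR-126-5p was well above background on 11 of 16 arrays: 3 of 3 for MPP, CMP and ST-HSC, 2 of 3 for GMP, 0 of 3 for MEP and 0 of 1 for LT-HSC. Raw signal of A_54_P1035 was 58.4, 63.2 and 59.98 units in MPP. CMP gave 50.9, 52.1 and 10.1 units, and ST-HSC 18.0, 15.8 and 15.7 units. The MPP arrays were again the brightest on their slide, and CMP the brightest myeloid population on each of its slides. GMP gave 19.0, 21.7 and 3.30 units, MEP 13.3, 10.4 and 4.302 units, and the LT-HSC array 4.33 units. Negative controls were brighter on slide 1, where their 95th percentile was 30.6 and 44.3 units on CMP 1 and 2. It was 17.3 and 13.3 units on GMP 1 and 2, and 12.3 and 9.94 units on MEP 1 and 2. On slides 2 and 3 it was 1.53 to 3.35 units. On slide 1 miR-126-5p thus lay closer to its array's negative controls, while the floor of 3.07 units was the same for all arrays. The coefficient of variation between spots was 3.19% to 64.6%, with a median of 16.4%, and the highest value belonged to GMP 3, where the probe was not well above background.

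On the normalized log2 scale miR-126-5p was at 5.65, 5.56 and 5.75 in MPP, with a mean of 5.66 ± 0.10 (SD, n = 3). CMP arrays stood at 5.20, 5.14 and 4.61 (mean 4.98 ± 0.33, SD, n = 3). ST-HSC 1 was at 5.11 and ST-HSC 2 and 3 at 3.75 and 3.95, with a mean of 4.27 ± 0.74 (SD, n = 3). As for miR-126-3p, the ST-HSC array of slide 2 lay above both ST-HSC arrays of slide 3. GMP stood at 3.91, 4.05 and 2.31, with a mean of 3.42 ± 0.97 (SD, n = 3). MEP stood at 3.28, 3.51 and 2.54, with a mean of 3.11 ± 0.51 (SD, n = 3), and LT-HSC at 3.52, all 4 not well above background. The order of the means was MPP, CMP, ST-HSC, LT-HSC, GMP, MEP, with LT-HSC lower than in the order of miR-126-3p. That place is not firm, since LT-HSC 1 did not measure miR-126-5p well above background. Scaled on probes that every array measured well above background, LT-HSC minus ST-HSC was 0.27 and LT-HSC minus CMP 0.13 for miR-126-5p.

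**Figure D1:**
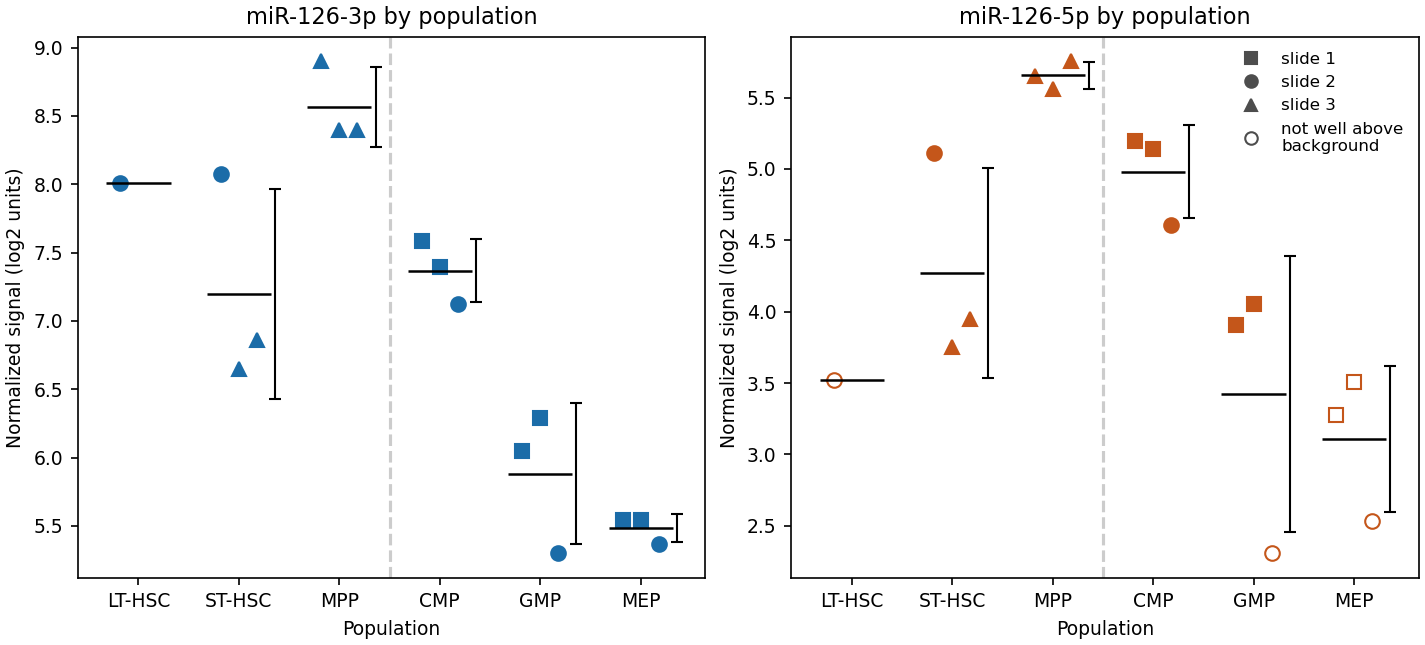
Normalized log2 signal of miR-126-3p (left) and miR-126-5p (right) on every array, by population. Squares, circles and triangles are arrays of slides 1, 2 and 3, open symbols arrays on which the probe was not well above background, horizontal lines population means, and error bars the SD over 3 arrays. MPP is highest for both arms, at a mean of 8.56 for miR-126-3p and 5.66 for miR-126-5p, and the LT-HSC array is at 8.01 for the first arm and 3.52 for the second.

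The second probe of each arm gave a check within the array. For miR-126-3p, A_54_P2285 was well above background on 16 arrays, its normalized values had a Pearson r of 0.98 with those of A_54_P2286 over 16 arrays, and the brighter probe was 1.17 to 1.65 times the other on the raw scale. Both probes placed MPP highest and MEP lowest, at means of 7.93 and 5.005 for A_54_P2285. For miR-126-5p, A_54_P4367 was well above background on 3 arrays, the 3 of MPP, where A_54_P1035 was 3.79 to 4.25 times as bright. Over 16 arrays the r of the miR-126-5p probes was 0.86, 13 of them arrays where the second probe was not well above background. These r values are descriptions over arrays that share slide and brightness.

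**Figure D2:**
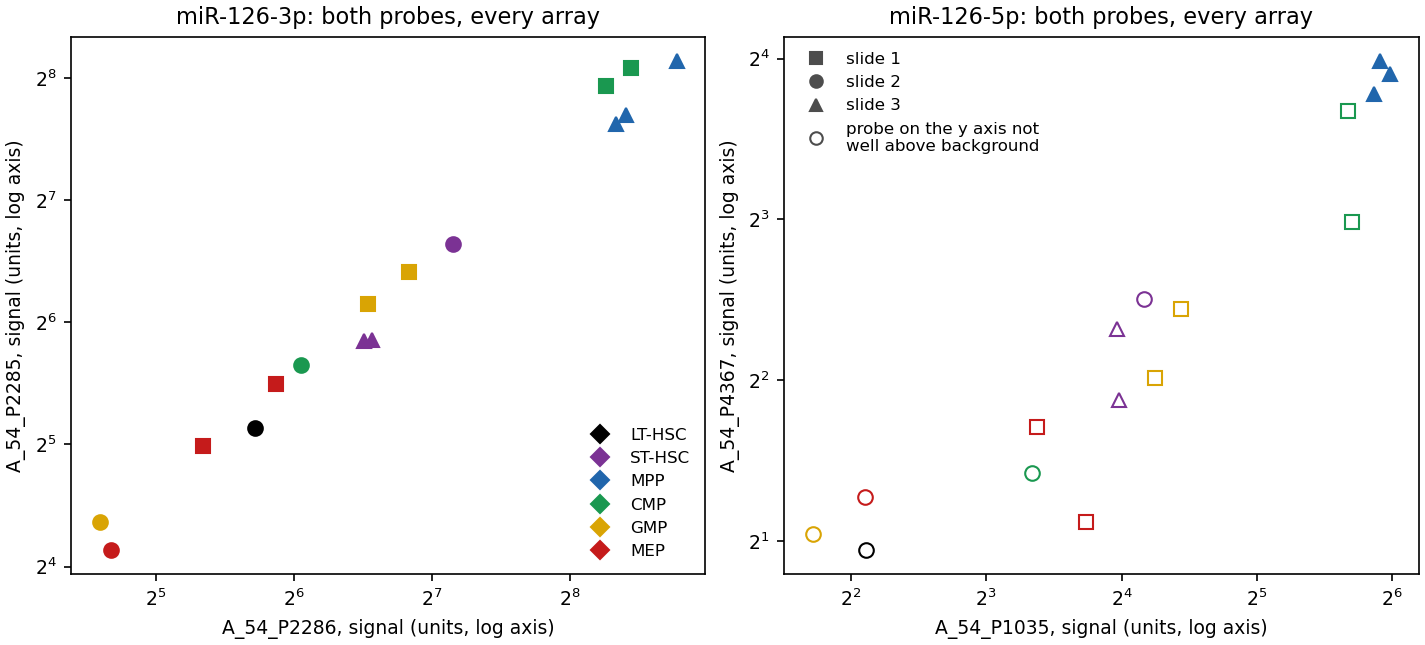
Signal before normalization of the second probe of each arm against the brighter probe, on every array, with both axes on a log scale. Colors are populations, symbol shapes slides, and open symbols arrays on which the probe on the vertical axis was not well above background. On the log2 scale before normalization the miR-126-3p probes had an r of 0.99 over all arrays, while the second miR-126-5p probe is filled for the 3 MPP arrays only.

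Levels were compared across populations by a linear model over all 16 arrays (limma), in which the LT-HSC array, having no replicate, was assumed to vary like the others. Differences are on the normalized log2 scale and p-values are adjusted over the 237 miRs tested (Benjamini-Hochberg), with a call at an adjusted p under 0.05. Both arms varied across the 6 populations, with a moderated F of 21.0 (adjusted p = 3.6e-05) for miR-126-3p and 8.93 (adjusted p = 0.00146) for miR-126-5p. Such variation was the rule on this array, since 82.7% of the miRs tested were called. By F, miR-126-3p ranked 51 and miR-126-5p ranked 115 of 237.

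Setting HSC subsets against myeloid progenitors asks whether miR-126 goes with the stem cell end of the hierarchy. The 7 arrays of HSC subsets ran from 6.65 through a median of 8.08 to 8.90 for miR-126-3p, and the 9 arrays of myeloid progenitors from 5.30 through 6.05 to 7.58. The sides overlapped, since ST-HSC 2 and 3 lay below CMP arrays. The fit gave each population mean equal weight, so the LT-HSC array counted as much as the 3 ST-HSC arrays together. miR-126-3p was higher in HSC subsets by 1.68 (SE 0.23, 3.20-fold, adjusted p = 6.96e-05), with 48.1% of all miRs called in this comparison. miR-126-5p ran from 3.52 through 5.11 to 5.75 in HSC subsets and from 2.31 through 3.91 to 5.20 in myeloid progenitors. Its difference of 0.65 (SE 0.31, 95% confidence interval -0.01 to 1.305) was not called, with an adjusted p of 0.0961. With each array counted once, its means were 4.76 in HSC subsets and 3.84 in myeloid progenitors. Without the LT-HSC array, which did not measure miR-126-5p well above background, the difference was 1.13 and was called (adjusted p = 0.00528), while that of miR-126-3p was 1.64. Slide 2 was the only slide with both sides, 2 arrays against 3, and there HSC subsets exceeded myeloid progenitors by 2.11 for miR-126-3p and 1.17 for miR-126-5p. With no normalization between arrays miR-126-3p differed by 0.70, not called (adjusted p = 0.244), where the median miR differed by -0.60.

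Among the 15 pairs of populations, miR-126-3p was called in 10 and miR-126-5p in 5. Within the HSC subsets, MPP exceeded ST-HSC in miR-126-3p by 1.37 (SE 0.35, adjusted p = 0.0399), a pair in which only 4.64% of miRs were called. The call was lost when any of 11 arrays was left out, namely ST-HSC 2 or 3, any MPP array, CMP 1 or 2, GMP 1 or any MEP array, with an adjusted p of up to 0.158 and differences of 1.11 to 1.82 over all arrays left out. It was also lost under 4 other settings, in which ST-HSC minus MPP was -1.11 with scaling on probes that every array measured well above background (adjusted p = 0.0654), -1.76 with no normalization between arrays (adjusted p = 0.536), and -1.37 with a floor of 1 unit (adjusted p = 0.0531) or with testing limited to those probes (adjusted p = 0.0585). miR-126-5p was 1.38 higher in MPP than in ST-HSC but was not called (adjusted p = 0.111). Without ST-HSC 1 or GMP 3 it was, with an adjusted p down to 0.0277. It was also called in 7 of 13 alternative settings and not in the other 6. The 7 included the authors' deposited values (adjusted p = 0.00898), normexp background correction (adjusted p = 0.0111) and the other probe (adjusted p = 0.0348). The pair that shared slide 3 gave 1.81 for miR-126-3p and 1.80 for miR-126-5p within that slide. On slide 2, with 1 array each, LT-HSC minus ST-HSC was -0.065 for miR-126-3p and -1.59 for miR-126-5p. Slide as a block gave the same values, and LT-HSC 1 did not measure miR-126-5p well above background. In the fit without a block, LT-HSC and ST-HSC did not differ beyond error in either arm, with 22.8% of miRs called there. miR-126-3p differed by 0.82 (95% confidence interval -0.26 to 1.89) and miR-126-5p by -0.75 (-2.15 to 0.65). Without ST-HSC 1 the miR-126-3p difference was 1.26 (adjusted p = 0.0219). LT-HSC and MPP, with 38.8% of miRs called, differed in miR-126-5p, which was at least 2.32-fold higher in MPP (adjusted p = 0.0209). Scaled on probes that every array measured well above background, LT-HSC minus MPP was -0.95 and not called (adjusted p = 0.0721). The fold is a bound because LT-HSC 1 did not measure the probe well above background, and the dim side was therefore set to the lowest signal of any probe well above background on that array. The adjusted p beside this and every later bound is that of the fitted difference, and the bounds themselves were not tested. In miR-126-3p LT-HSC minus MPP was -0.55 (95% confidence interval -1.63 to 0.52, adjusted p = 0.394).

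Within the myeloid progenitors, CMP carried more of both arms than MEP. miR-126-3p was 1.88 higher in CMP (SE 0.35, 3.69-fold, adjusted p = 0.000437), and within slides 1 and 2 the difference was 1.95 and 1.75. miR-126-5p was at least 2.51-fold higher in CMP than in MEP (adjusted p = 0.0028). The pair was among the most divergent of the array, with 64.6% of miRs called. CMP against GMP was a quieter pair, with 7.59% of miRs called, and miR-126-3p was among them at 1.49 higher in CMP (SE 0.35, 2.81-fold, adjusted p = 0.0209). By size this was rank 12 of 237 in the pair, and the difference was 1.32 on slide 1 and 1.82 on slide 2. The call was lost without CMP 1, CMP 2 or GMP 3, with an adjusted p of up to 0.0929. miR-126-5p was 1.56 higher in CMP than in GMP, just outside the threshold (adjusted p = 0.0523), and GMP 3 was the GMP array not well above background. Without ST-HSC 1, GMP 2 or MEP 3 it was called, with an adjusted p down to 0.0245. It was also called in 6 of 13 alternative settings and not in the other 7. GMP and MEP, with 62.9% of miRs called, did not differ beyond error in miR-126-3p, at 0.40 (95% confidence interval -0.36 to 1.16), or in miR-126-5p, at 0.31 (-0.67 to 1.302). The difference of miR-126-3p between GMP and MEP was 0.63 on slide 1 and -0.07 on slide 2.

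Between the branches, MPP exceeded GMP and MEP by the widest margins. Against GMP, miR-126-3p was 2.68 higher (6.42-fold, adjusted p = 4.47e-05) and miR-126-5p was 2.23 higher (4.70-fold, adjusted p = 0.00186), with 42.6% of miRs called. Against MEP, miR-126-3p was 3.08 higher (8.45-fold, adjusted p = 5.09e-06) and miR-126-5p at least 4.001-fold higher (adjusted p = 0.00026), with 71.3% of miRs called. MPP also exceeded CMP, by 1.195 in miR-126-3p (SE 0.35, adjusted p = 0.0193), with 32.9% of miRs called, and miR-126-5p differed by 0.67, not called (adjusted p = 0.265). In 5 of 13 alternative settings miR-126-5p was called in this pair, and in the other 8 it was not. Without MPP 1 or CMP 3 the call for miR-126-3p was lost, with an adjusted p of up to 0.0756. ST-HSC were above GMP by 1.32 in miR-126-3p (adjusted p = 0.0124) and by 0.85 in miR-126-5p, not called (adjusted p = 0.161), in a pair with 36.7% of miRs called. Against MEP, ST-HSC were 1.71 higher in miR-126-3p (adjusted p = 0.00108) and at least 1.53-fold higher in miR-126-5p (adjusted p = 0.0417), with 59.9% of miRs called. The latter call was lost without ST-HSC 1, any MPP array, CMP 1 or 2, or MEP 1 or 3, with an adjusted p of up to 0.167, and also with normexp background correction (0.18, adjusted p = 0.0744), on the other probe (0.68, adjusted p = 0.121) and with no normalization between arrays (0.97, adjusted p = 0.335). ST-HSC and CMP were not distinguished. With 17.7% of miRs called, miR-126-3p differed by -0.17 (95% confidence interval -0.93 to 0.59) and miR-126-5p by -0.71 (-1.70 to 0.28).

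The LT-HSC array was above the GMP arrays by 2.13 in miR-126-3p (SE 0.50, adjusted p = 0.0045), with 42.6% of miRs called, and above the MEP arrays by 2.53 (SE 0.50, adjusted p = 0.00222), with 27.8% of miRs called. Both calls rest on a single array of low brightness, and both depended on the scaling. With no normalization between arrays LT-HSC minus GMP was -0.27 and LT-HSC minus MEP 0.42 (adjusted p = 0.836 and 0.815). Scaled on all probes, LT-HSC minus GMP was 1.11 (adjusted p = 0.121). Against CMP, with 42.2% of miRs called, LT-HSC differed by 0.64 in miR-126-3p (adjusted p = 0.302) and by -1.46 in miR-126-5p (adjusted p = 0.0833), called without ST-HSC 1 or GMP 3 (adjusted p down to 0.0307). No fold of miR-126-5p can be given for LT-HSC against MEP, where neither was well above background, or against GMP, where the bound was under 1. In this fit, ST-HSC and GMP were thus the only neighbours in the order of miR-126-3p that differed beyond their spread, and no neighbours in the order of miR-126-5p did. The scaling bore on these calls. With no normalization between arrays miR-126-3p was called in 4 of the 15 pairs, which were MPP against LT-HSC, GMP and MEP, and CMP against MEP. CMP against GMP was then 1.60 (adjusted p = 0.503) and ST-HSC against MEP 1.45 (adjusted p = 0.111). The difference between ST-HSC and GMP was also not called when arrays were scaled on all their probes by the 75th percentile (0.95, adjusted p = 0.0836) or on the other probe, A_54_P2285 (0.79, adjusted p = 0.146). MPP against CMP was not called in the same settings, at 0.92 (adjusted p = 0.0985) and 0.95 (adjusted p = 0.0832).

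**Figure D3:**
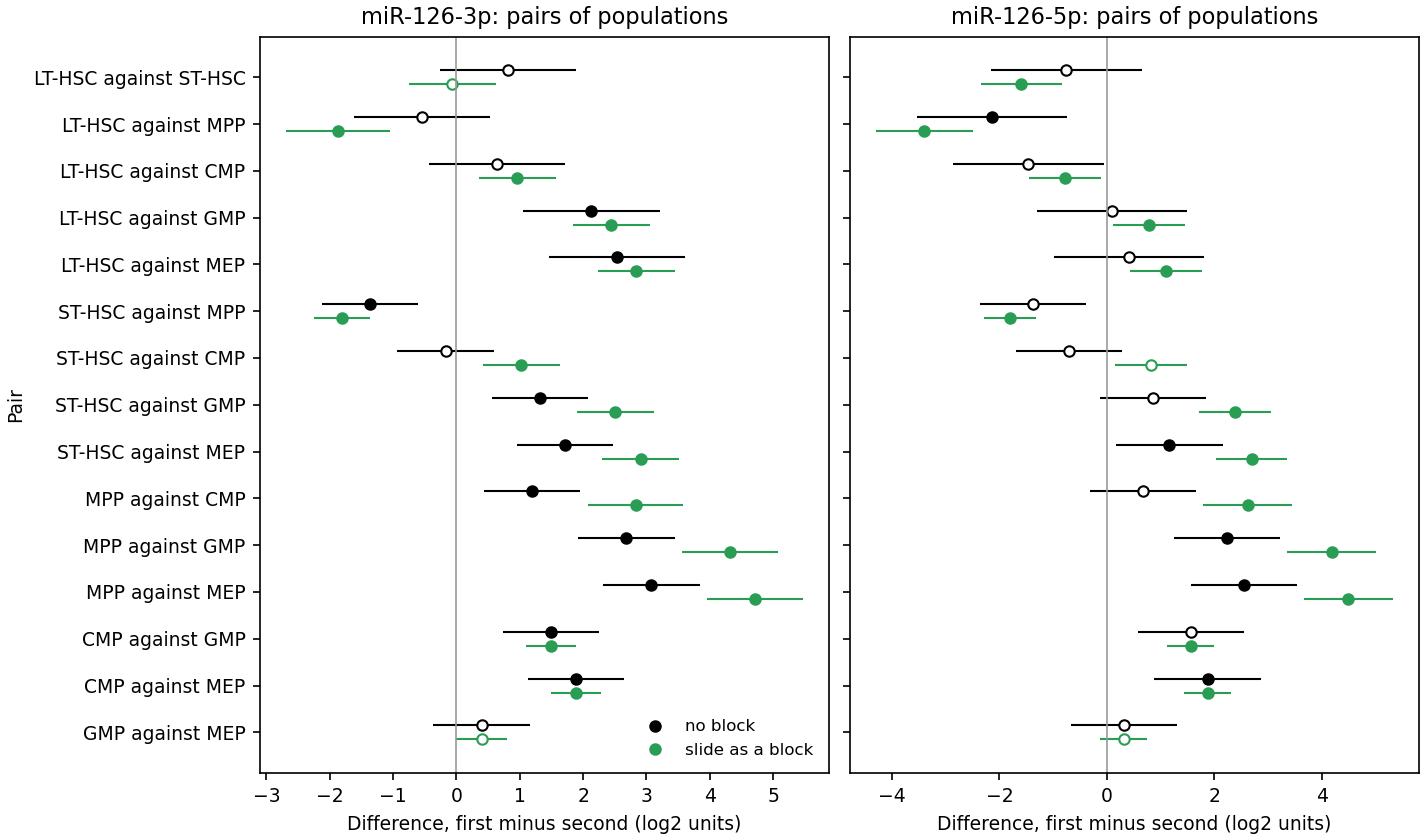
Difference of each pair of populations, first named minus second, for miR-126-3p (left) and miR-126-5p (right), on the normalized log2 scale. Black points come from the model without a block and green points from the model with slide as a block; bars are 95% confidence intervals and filled points have an adjusted p under 0.05. MPP against GMP and MEP are among the widest differences, and ST-HSC against CMP moves from -0.17 to 1.02 for miR-126-3p when slide enters the model.

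Slide moved with several of these differences. In CMP, GMP and MEP, normalized miR-126-3p was 0.37, 0.87 and 0.17 higher on slide 1 than on slide 2, and in ST-HSC it was 1.32 higher on slide 2 than on slide 3. For miR-126-5p the same differences were 0.56, 1.67, 0.86 and 1.26. With slide as a block, 13 of 15 pairs were called for each arm, and these included all 10 and all 5 pairs called without it, in the same direction. The share of all miRs called with the block is not given, so these counts cannot be read as particular to miR-126. miR-126-3p was then 2.73 and miR-126-5p 2.03 higher in HSC subsets than in myeloid progenitors (adjusted p = 3.41e-06 and 4.45e-05). ST-HSC against CMP turned from -0.17 to 1.02 for miR-126-3p (adjusted p = 0.031) and from -0.71 to 0.82 for miR-126-5p (adjusted p = 0.105), beside 0.95 and 0.51 within slide 2. LT-HSC against MPP became a called pair for miR-126-3p, at -1.87 (adjusted p = 0.00201). MPP shared a slide with ST-HSC alone, so the blocked differences of MPP from every other population rest on 3 ST-HSC arrays.

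The arms varied together. Over the 16 arrays, which share slide and brightness, their Pearson r was 0.87, it was 0.85 to 0.95 when an array was left out, and 0.93 over the 11 arrays with miR-126-5p well above background. Over the 6 population means, which include the unreplicated LT-HSC array, the r of the arms was 0.74. To compare their changes, miR-126-5p was subtracted from miR-126-3p on each array, both on the normalized log2 scale. Only the differences of this quantity between samples have a meaning. It was 2.96, 2.89 and 2.91 in ST-HSC, 3.25, 2.83 and 2.64 in MPP, and 4.49 on the LT-HSC array. In CMP it was 2.39, 2.26 and 2.52, in GMP 2.15, 2.24 and 2.99, and in MEP 2.26, 2.03 and 2.83. All HSC subset arrays were above all CMP arrays, and they overlapped with GMP 3 and MEP 3, on both of which miR-126-5p was not well above background.

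HSC subsets averaged 3.14 ± 0.62 (SD, n = 7), myeloid progenitors 2.41 ± 0.32 (SD, n = 9), so that miR-126-3p was higher relative to miR-126-5p in HSC subsets by 0.73 (two-sided exact permutation test over 11440 splits, p = 0.00184). Each array counted once here, unlike in the fit, where populations had equal weight. The test exchanged single arrays without regard to population or slide. Its p therefore measures the spread between arrays, not that between the populations of a side. Over the arrays with miR-126-5p well above background, a restriction added after the data were seen, the difference was 0.61 (6 against 5 arrays, two-sided exact permutation test, p = 0.00216). Of the 5 myeloid arrays that remained, 4 were on slide 1, which held 0 arrays of HSC subsets, and 0 were of MEP, so slide and side can hardly be told apart in this restricted comparison. Without the LT-HSC array it was 0.51 (two-sided exact permutation test, p = 0.00599). The call was lost with scaling to a percentile or with no normalization, where the difference was 0.31 (two-sided exact permutation test, p = 0.109), and on the other probe of each arm, where it was 0.36 (two-sided exact permutation test, p = 0.198). Percentile scaling and no normalization are the same test here, since a factor per array cancels in the subtraction. The call therefore depended on quantile normalization. Slide moved with the difference of the arms as well. Myeloid arrays of slide 1 lay at 2.03 to 2.39, those of slide 2 at 2.52 to 2.99, and HSC subset arrays at 2.96 and 4.49 on slide 2 and at 2.64 to 3.25 on slide 3. Within slide 2 the difference was 0.95 for 2 arrays against 3 (two-sided exact permutation test, p = 0.2, where 0.1 is the smallest p these numbers allow).

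**Figure D4:**
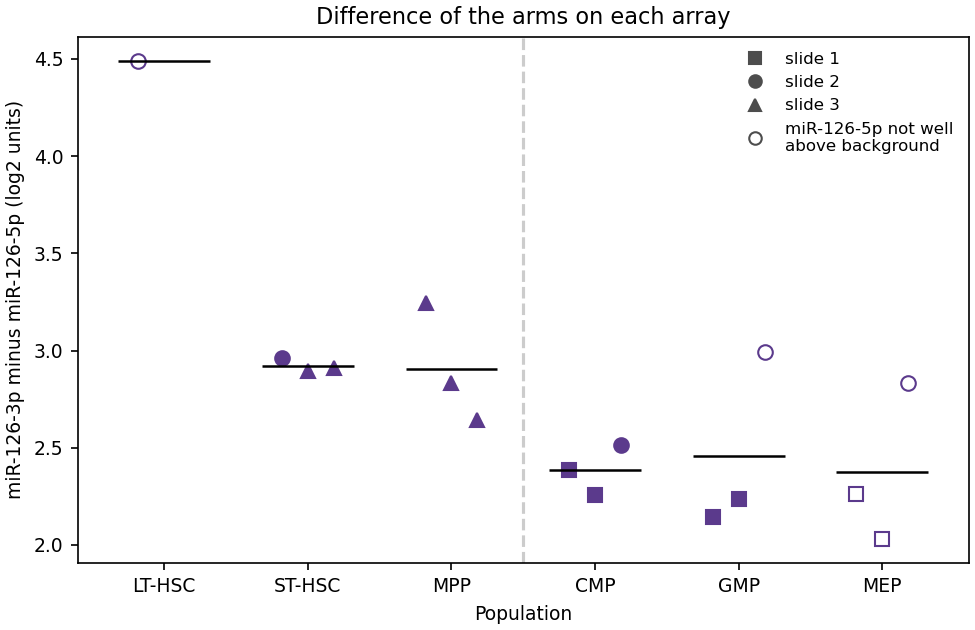
Normalized log2 signal of miR-126-3p minus that of miR-126-5p on each array, by population; the height itself depends on the probes and only differences between arrays are informative. Symbol shapes are slides, open symbols arrays on which miR-126-5p was not well above background, and lines population means. HSC subsets average 3.14 and myeloid progenitors 2.41, with the LT-HSC array at 4.49 and the slide 1 arrays lowest.

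Among the 236 other miRs tested, the pattern most like that of miR-126-3p was that of miR-150, a miR of mature lymphocytes, with a Pearson r of 0.93 over 16 arrays and 0.99 over the 6 population means. The normalized signal of miR-150, the lymphoid marker of the marker lists, was 135.7 to 156.7 units in MPP, 25.2 to 68.2 units in LT-HSC, ST-HSC and CMP, and 4.85 to 18.9 units in GMP and MEP. The part of lymphoid cells in the miR-126 levels was not tested. It was followed by miR-365 (r = 0.91) and miR-125b-5p (r = 0.88), then by miR-126-5p itself at rank 4 (r = 0.87), miR-196b (r = 0.86) and miR-99a (r = 0.86). For miR-126-5p the first was miR-196a (r = 0.87), a miR of the Hox clusters, then miR-126-3p at rank 2, miR-150 (r = 0.85), miR-196b (r = 0.84), miR-365 (r = 0.82) and miR-128 (r = 0.81). miR-150, miR-196b and miR-365 were on both lists. These are descriptions over arrays that share slide and brightness, and miR-196a, miR-150 and miR-365 were well above background on 9, 12 and 12 arrays. With slide means removed, r with miR-126-3p was 0.96 for miR-150, 0.92 for miR-365, 0.91 for miR-126-5p, 0.86 for miR-196b, 0.83 for miR-125b-5p and 0.80 for miR-99a. For miR-126-5p it was then 0.87 with miR-196b, 0.86 with miR-196a, 0.84 with miR-150, and 0.77 with both miR-365 and miR-128.

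**Figure D5:**
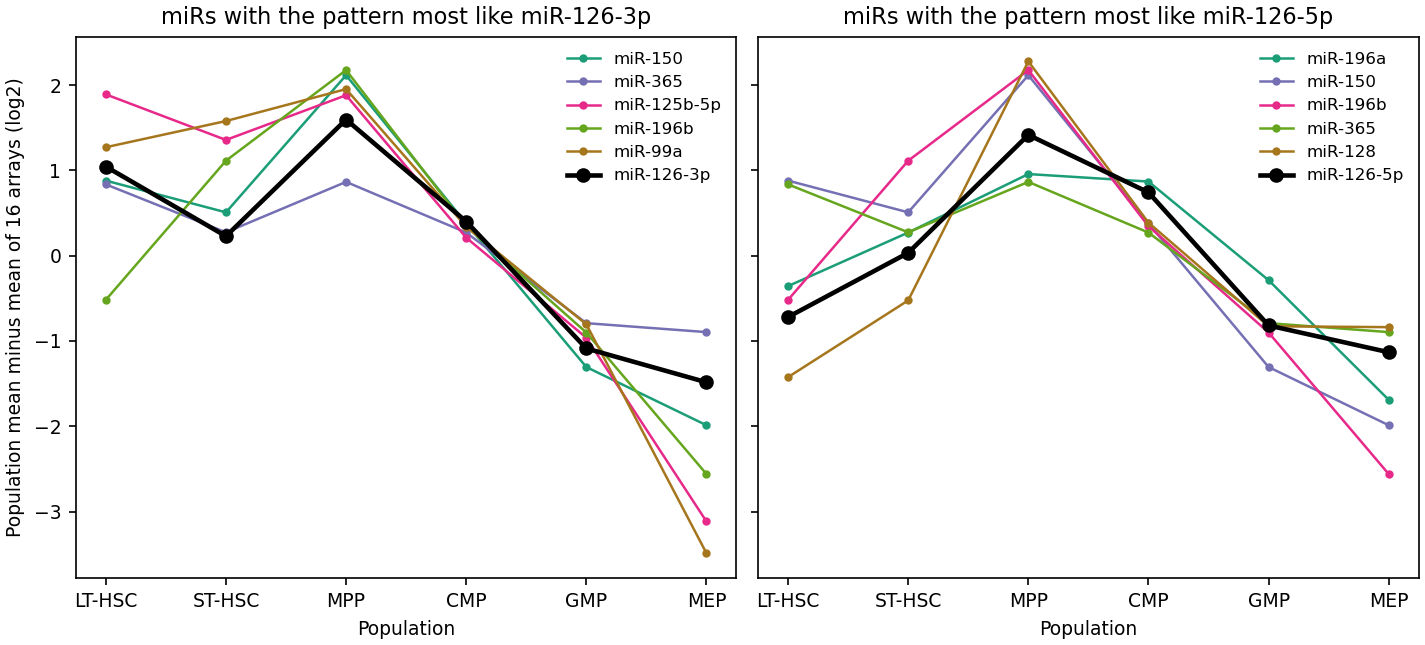
Population means, minus the mean over 16 arrays, of each arm (thick black line) and of the 5 other miRs with the highest Pearson r over arrays, on the normalized log2 scale. All lines fall from MPP to MEP, and they part in LT-HSC, where miR-126-3p lies above its 16-array mean and miR-126-5p below it.

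miR-126 was also read beside 12 miRs with known roles in stem and progenitor cells, all measured and tested. The list was chosen with earlier results of these data known, so its direction is a description and no independent evidence. Of these miRs, 12 were called higher and 0 lower in HSC subsets than in myeloid progenitors, where 48.1% of all miRs were called in either direction. The median difference of the list was 2.34, or 1.91 with miR-125a-5p at its bound, against 0.06 over all 237 miRs. The 4 with the largest fitted differences were let-7e, miR-125a-5p, miR-125b-5p and miR-99a. miR-125b-5p differed by 3.00 (SE 0.18, adjusted p = 2.41e-08) and miR-99a by 2.92 (SE 0.16, adjusted p = 1.2e-08). let-7e, of the let-7 family, differed by 3.46 (adjusted p = 1.4e-07), a size that is not firm since 2 of 9 myeloid arrays measured it well above background. miR-125a-5p was so measured on 0 of the 9, and its level in HSC subsets was at least 2.78-fold higher (adjusted p = 1.2e-08). The 1.68 of miR-126-3p and the 0.65 of miR-126-5p stood below both medians of the list. Leaving out miR-125a-5p, which no myeloid population measured, 11 of 11 listed miRs were called higher in CMP than in MEP and 4 of 11 higher in CMP than in GMP, where 64.6% and 7.59% of all miRs were called. These comparisons share the CMP arrays with each other and with that of HSC subsets against myeloid progenitors. In MPP against ST-HSC, with 4.64% of all miRs called, 0 of the 12 were called higher in MPP and 1 lower, miR-130a, at -1.51 (adjusted p = 0.0364). These counts are too small to say anything of the list in that pair.

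The miR-125 strands of this list are shown because they share a seed, unlike miR-126a-3p, whose seed no other miR of the table has. Their sequences are those of RefSeq on GRCm38.p6, with bases 2 to 8 in capitals, and miR-125b-5p is also encoded at a second locus.
miR-125a-5p: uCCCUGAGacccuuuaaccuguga
miR-125b-5p: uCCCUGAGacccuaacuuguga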

How the data were processed

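Total RNA of sorted populations had been hybridised to Agilent single-color mouse miR arrays. The deposited scanner files give spot intensity after background subtraction by Agilent Feature Extraction (version 9.5.3.1 on slide 1, which was read on another scanner model, and 10.2.1.3 on slides 2 and 3, per the file headers), with no normalization between arrays. The authors also deposited log2 values per spot after quantile normalization with limma. Their rank order on each array was that of the median foreground signal (rho = 1). A background that differed between spots had therefore not been subtracted, while a constant per array would leave the rank order unchanged. The authors' values were used as an alternative. Sample groups and replicate numbers came from the titles.

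Controls and outlier-flagged spots were removed, spots of a probe were averaged, and quantile normalization, a floor of 3.07 units (from each array's negative controls, 95th percentile, median of the arrays) and log2 were applied. Probes well above background on at least 3 arrays were kept, 493 probes of 237 miRs, and the brightest stood for its miR. A mean per population was fitted over all arrays (limma 3.58.1, lmFit and eBayes, R 4.3.3; version 1.17.8 of data.table; Python 3.11.15 with pandas 2.3.3, numpy 2.4.6 and matplotlib 3.10.9 for reading and plots), with 10 residual and 3.10 prior degrees of freedom. Tests were two-sided. The fit was tested on simulated data, and the outcome is not given here. The arm difference was compared by exact permutation. Precision is limited by how many arrays there were.

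Named miRs were both arms, for each arm the 5 other miRs with the highest Pearson r over 16 arrays, and of a list of 12 stem cell miRs the 4 with the largest difference. The members and lists were chosen with earlier results of these data known. Alternatives covered normalization, background correction, the authors' values, floor, detection filter, probe choice, intensity trend, blocks for slide or for replicate number, and each array left out. The replicate numbers were not stated to pair samples.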

Additional observations from a re-analysis of the deposited data

Results flagged for a closer look

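The difference of miR-126-3p minus miR-126-5p on the LT-HSC array, 4.49 on the normalized log2 scale, lay far from the other 6 arrays of HSC subsets, which ran up to 3.25. miR-126-5p was not well above background there. A rule of this kind marks about 1 in 20 groups by chance, and 6 were examined.

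The difference of miR-126-5p between CMP and GMP was 1.19 on slide 1 and 2.30 on slide 2, so the slides differed by -1.11 (limma, population by slide means, adjusted p = 0.0335 over 237 miRs). On slide 2 it rests on 1 array of each population, and on GMP 3 the probe was not well above background. For miR-126-3p the slides differed by -0.50 in the same pair (limma, adjusted p = 0.422).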

How the results depend on the processing

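Under 14 alternatives for miR-126-3p, 13 for miR-126-5p (left out by the filter to probes well above background on all arrays) and 16 single arrays left out, both arms varied across the 6 populations in every fit. The difference of miR-126-3p between HSC subsets and myeloid progenitors was called in all but the fit with no normalization between arrays (0.70), and was 1.53 to 1.79 with an array left out. For miR-126-5p it was called with scaling to the 75th percentile of probes well above background on all arrays (1.27), with the authors' values (0.23), with the mean of passing probes (0.71), with the other probe of each arm (0.78) and with slide as a block (2.03), and ran from 0.46 without GMP 3 to 1.13 without LT-HSC 1, the only array whose removal gave a call. The cause was not tested. Of all calls in this comparison, 60 were higher and 54 lower in HSC subsets (52.6% higher), beside 75.4% higher with scaling to probes well above background on all arrays, 42.2% with scaling to all probes and 19.5% with no normalization, where the median over all miRs was 0.40, -0.13 and -0.60. Relative to that median miR-126-3p was 1.36, 1.35 and 1.302 and miR-126-5p 0.87, 0.86 and 0.81 higher.

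Called pairs numbered 4 for miR-126-3p with no normalization, and for miR-126-5p 10 with scaling to probes well above background on all arrays, 8 with the authors' values and 13 with slide as a block. With an array left out they were 8 to 11 and 4 to 7. No share of all miRs called is given for these settings, so the counts are not particular to miR-126. The change of miR-126-3p relative to miR-126-5p was no longer called with either percentile scaling or with no normalization (0.31 in each, the same test, since a factor per array cancels). It was also not called with the other probe of each arm (0.36) or within slide 2 (0.95), and was 0.51 to 0.82 with an array left out.

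Some pairs changed sign. With scaling to probes well above background on all arrays, GMP minus MEP was -0.39 for miR-126-3p and -0.69 for miR-126-5p, LT-HSC minus MPP 0.061 for miR-126-3p, and LT-HSC minus CMP and minus ST-HSC 0.13 and 0.27 for miR-126-5p. With scaling to all probes LT-HSC minus CMP was -0.44 for miR-126-3p. With no normalization, miR-126-3p gave -1.87 for LT-HSC minus CMP, -0.27 minus GMP and -1.03 minus ST-HSC, and miR-126-5p gave -1.35 minus GMP and -0.96 minus MEP. With slide as a block LT-HSC minus ST-HSC was -0.065 for miR-126-3p, and ST-HSC minus CMP was 1.02 for miR-126-3p and 0.82 for miR-126-5p. LT-HSC minus GMP for miR-126-5p was -0.0043 with the higher floor and -0.24 with the replicate block, and -0.46 to 0.41 with an array left out. ST-HSC minus CMP for miR-126-3p was -0.61 to 0.10 with an array left out.

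The replicate block called 10 pairs for miR-126-3p and 7 for miR-126-5p, and left the change of miR-126-3p relative to miR-126-5p at 0.71 (exact permutation within replicate number, p = 0.004). Of 30 pairs of same-numbered arrays, 12 had residuals correlated over 0.1 (-0.37 to 0.63), and 9 of 15 arrays correlated best with an array of their own number. Same-numbered arrays that shared a slide ran from 0.013 to 0.63, and those on different slides from -0.37 to 0.16. Of the 5 miRs most like miR-126-3p, 3 were kept with scaling to probes well above background on all arrays, with a floor of 1 unit and with the other probe, and 2 with the strictest filter and with slide means removed. For miR-126-5p, 2 were kept with the other probe and with slide means removed. With an array left out 3 to 5 and 2 to 5 were kept. Signal over background limits miR-126-5p, which 5 arrays did not measure well above background.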
